A study of Mus musculus with 16 samples.

Results

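Pre-mRNA splicing genes were followed across 16 mouse expression arrays: the genes of heterogeneous nuclear ribonucleoproteins (hnRNPs), of serine/arginine-rich (SR) splicing factors, of small nuclear ribonucleoprotein (snRNP) polypeptides and of the SF3A and SF3B complexes. A gene was included if the platform annotation gave its probe set a single gene symbol that began with Hnrnp, Srsf, Snrp, Sf3a or Sf3b. The rule found 58 probe sets of 41 genes among 12422 tested probe sets and 8251 genes, and each gene was read by its brightest probe set. The families held 16 hnRNP genes, 9 SR genes, 8 Snrp genes, with the pseudogene Snrp1c-ps2 among them, and 8 SF3A/SF3B genes. A further 7 probe sets were left out because they named several genes, and through them Hnrnpa3, Snrpa, Snrpd1 and Snrpd2 were not analysed here. Srsf7 and Snrpn had no member probe set.

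The RNA was total RNA of CD4+CD8+ thymocytes out of fetal thymic organ culture, the culture of intact lobes of the fetal thymus. In each strain there were 3 groups: BDC2.5 transgenic thymocytes with no peptide (n = 3), BDC2.5 transgenic thymocytes that had had peptide for 16 h (n = 3) and wild-type thymocytes (n = 2). The strains were NOD, which develops autoimmune diabetes, and B6g7, a C57BL/6 background with the MHC haplotype of NOD. The BDC2.5 transgenes encode the antigen receptor of a diabetogenic CD4 T cell clone, so their thymocytes share a specificity. The labels give no animal age, no peptide name or dose and no peptide status of the wild-type cultures. They also do not say that the arrays of a group came from separate animals or cultures, so the p-values may measure only technical spread.

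Introns are removed by the spliceosome, whose U1 and U2 snRNPs carry a ring of Sm proteins (among them those of Snrpb, Snrpd3, Snrpe and Snrpg) and particle-specific proteins such as those of Snrpc in U1 and Snrpa1 and Snrpb2 in U2. SF3A and SF3B are the parts of the U2 snRNP that hold it on the branch point of the intron. SR proteins bind exon enhancers and favour exon inclusion, while many hnRNPs coat nascent RNA and favour exon skipping, and in T cells the pair Hnrnpl and Hnrnpll is known for removing the variable exons of CD45 (Ptprc).

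The promoter stretch of 4 genes is printed because these genes carry the pattern described below: Srsf10, Hnrnpm and Srsf2 gave some of the largest differences upward between arrays and Sf3b2 a difference downward. Each is the 250 bases before the most upstream RefSeq start, read 5′ to 3′ on the strand of the gene (RefSeq, GRCm38.p6). Capitals mark the GC box GGGCGG or the ETS core CCGGAA on either strand. The stretches lie at chr4:135855821-135856070 (plus strand, Srsf10), chr17:33685459-33685708 (minus, Hnrnpm), chr11:116853095-116853344 (minus, Srsf2) and chr19:5295458-5295707 (minus, Sf3b2).
Srsf10: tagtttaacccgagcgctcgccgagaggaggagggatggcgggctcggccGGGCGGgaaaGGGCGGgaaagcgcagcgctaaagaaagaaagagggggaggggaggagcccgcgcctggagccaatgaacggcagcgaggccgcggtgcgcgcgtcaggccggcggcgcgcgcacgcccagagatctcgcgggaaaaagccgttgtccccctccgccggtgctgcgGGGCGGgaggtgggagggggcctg
Hnrnpm: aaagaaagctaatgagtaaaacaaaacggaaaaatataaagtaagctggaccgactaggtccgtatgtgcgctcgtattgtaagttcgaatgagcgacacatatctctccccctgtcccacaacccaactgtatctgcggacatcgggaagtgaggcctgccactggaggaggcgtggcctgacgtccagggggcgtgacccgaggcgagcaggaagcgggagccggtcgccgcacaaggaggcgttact
Srsf2: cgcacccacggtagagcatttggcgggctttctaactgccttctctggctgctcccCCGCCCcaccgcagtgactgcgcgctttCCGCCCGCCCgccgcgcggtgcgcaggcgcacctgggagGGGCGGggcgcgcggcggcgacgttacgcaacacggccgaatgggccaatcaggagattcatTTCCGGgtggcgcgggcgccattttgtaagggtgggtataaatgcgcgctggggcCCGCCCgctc
Sf3b2: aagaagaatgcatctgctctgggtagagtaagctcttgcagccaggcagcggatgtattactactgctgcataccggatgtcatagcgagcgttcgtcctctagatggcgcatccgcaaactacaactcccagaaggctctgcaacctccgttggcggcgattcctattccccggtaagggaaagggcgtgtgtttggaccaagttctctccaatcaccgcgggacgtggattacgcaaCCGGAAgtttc
The GC box occurred 3 times in the Srsf10 stretch and 5 times in that of Srsf2, a pair of them overlapping, and the ETS core once each in Srsf2 and Sf3b2. Neither was found in the Hnrnpm stretch. Of the 41 genes, 36 had an entry in the RefSeq promoter table, and Hnrnpll, Hnrnpul2, Sf3b5, Snrp1c-ps2 and Snrpb had none. The ETS core was present in 20 of the 36 (55.6%), against 19.8% of 6572 genes of the array and 12.3% of all 27025 genes of the table in a window of the same length. The GC box was present in 25 (69.4%), against 54.8% and 33.0%. Of the other motifs searched on both strands, CCAAT was in 44.4% of the members (36.0% of the genes of the array), the cAMP response element core TGACGT in 19.4% (9.74%) and the TATA box TATAAA in 11.1% (9.34%). Matches of different motifs can share end bases (TTCCGG with GGGCGG, for example), and each motif was counted on its own. Of the 18 entries among genes called higher in the comparison below, 15 held the GC box (83.3%) and 8 the ETS core (44.4%). Of 16 entries of genes not called there, 9 held the GC box (56.2%) and 11 the ETS core (68.8%), and of the 2 entries of genes called lower 1 held each. The difference between called and uncalled members was not tested, and motif shares were not computed for all genes of the array by call. A match describes the letters of the window and was not tested for binding.

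Of 12 listed markers of CD4+CD8+ thymocytes 9 were measured. Each had a median intensity of at least 50 over the 16 arrays, with Cd4 at 240, Cd8a at 2471 and Rag1 at 1524. That level lies below the array medians and does not show presence. It was also reached by 3 of 5 B cell, 4 of 11 myeloid, 3 of 7 thymic epithelial, 4 of 9 mesenchymal and endothelial and 1 of 4 erythroid markers. The median over the genes of a list was 1168 for thymocytes and 31.2 to 83.5 for the other lists. The array medians of intensity ran from 54.7 to 59.1. The arrays with the highest number of their group stood apart from the rest. These 6 last-numbered arrays, numbered 3 in the 4 BDC2.5 groups and 2 in the wild-type groups, differed from the other 10 at 4091 of 12422 probe sets (32.9%) by limma with the 6 group means in the model, at an adjusted p under 0.05, which is the threshold of a call throughout. The split was first noticed in the values of these same arrays, so the calls of that comparison are a description to be read against the share of all probe sets called.

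The splicing genes spread more widely within groups than the median probe set. The median SD of log2 intensity within groups was 0.41 over the 41 genes, against 0.18 over all probe sets. It was 0.62 for the hnRNP genes, 0.37 for the SR genes, 0.36 for the Snrp genes and 0.27 for the SF3A/SF3B genes. It was also 0.35 for 93 other genes of the splicing machinery, described below. Over all 8251 genes by their brightest probe set it was 0.20. With a term for the last-numbered arrays the members' median fell to 0.27, and that of all probe sets was 0.15. Srsf10, which encodes an SR-like protein that represses splicing when dephosphorylated, had an SD of 1.46, and 0.44 with the term. Hnrnpm, an hnRNP that binds GU-rich RNA, had an SD of 1.10, and 0.42 with the term. At the other end stood Srsf6, a classical SR protein gene, at 0.15. By mean intensity 39 of the 41 genes lay above the median probe set of the array.

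**Figure D1:**
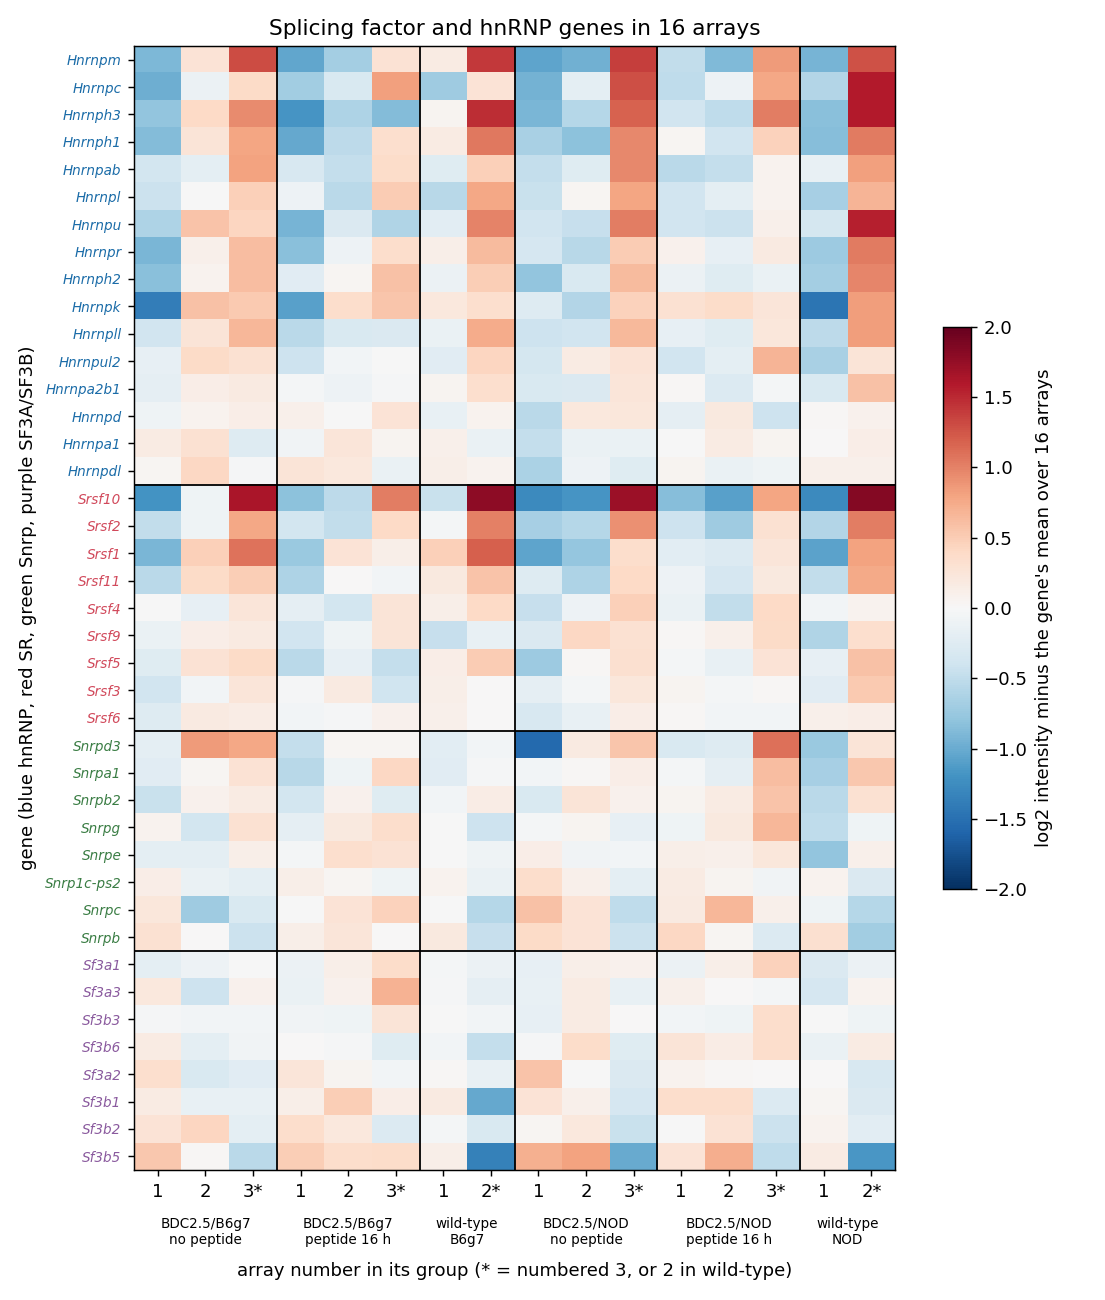
Log2 intensity of each of the 41 genes (rows, ordered within families by the difference of the last-numbered arrays) in each of the 16 arrays (columns, by group), minus the gene's mean over all arrays. The starred last-numbered array of most groups is red for most hnRNP and SR genes and blue for Snrpb, Sf3b2 and Sf3b5.

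In the last-numbered arrays, 20 of the 41 genes (48.8%) were called higher and 5 (12.2%) lower. Over all probe sets 14.8% were called higher and 18.1% lower. Over 5019 genes at least as bright as the dimmest member, 22.2% were called higher and 22.8% lower. The median log2 difference was 0.39 over the members and -0.07 over all probe sets. The families differed in direction by their counts: 12 of 16 hnRNP genes were called higher and 0 lower (median 0.85), and 6 of 9 SR genes were called higher and 0 lower (median 0.48). Of 8 Snrp genes, 2 were called higher and 2 lower (median 0.21), and of 8 SF3A/SF3B genes 0 were called higher and 3 lower (median -0.19). The difference between the families was not tested.

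**Figure D2:**
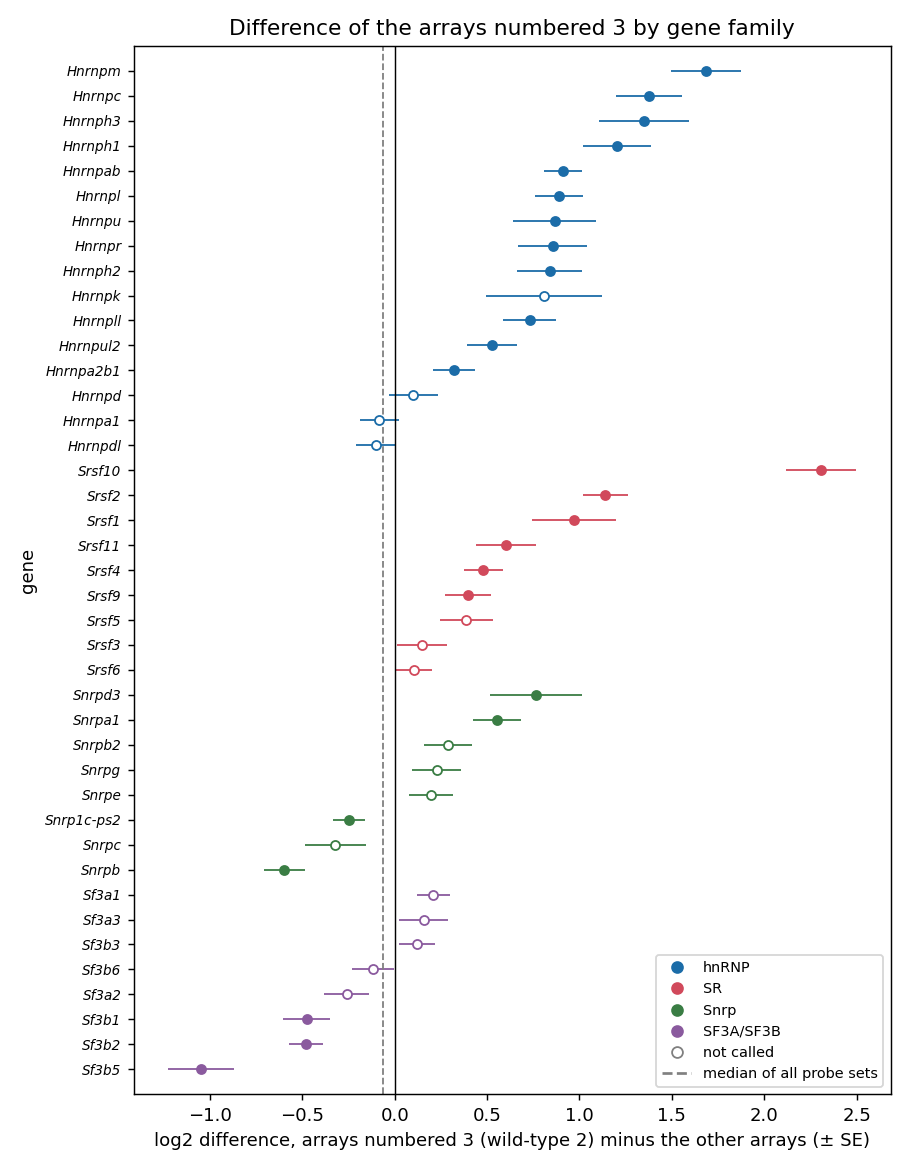
Log2 difference of the 6 last-numbered arrays minus the other 10, with the standard error of the limma fit, for each gene by family; filled points were called and open points were not. All called hnRNP and SR genes lie above 0, the 3 called SF3A/SF3B genes lie below it, and the dashed line is the median of all probe sets at -0.07.

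Among the hnRNP genes, Hnrnpm read 2297, 1138, 2481, 2427, 1682 and 2241 in the last-numbered arrays of B6g7 without peptide, B6g7 at 16 h, wild-type B6g7, NOD without peptide, NOD at 16 h and wild-type NOD, in that order. In the other 10 arrays it read from 448 to 1124 with a median of 501. Each of the 6 arrays thus lay above all of the other 10, and the log2 difference was 1.69 ± 0.19 (3.22-fold, limma adjusted p = 1.84e-05). Hnrnpc, whose protein binds uridine tracts and packages nascent transcripts, read 69.7, 93.9, 64.6, 130, 91.3 and 161 in the same order of groups, against 27.2 to 49.5 with a median of 36.5 in the rest. The groups of arrays did not overlap, with a difference of 1.38 ± 0.18 (adjusted p = 5.32e-05). The related G-run binding genes Hnrnph1, Hnrnph2 and Hnrnph3 were all higher. Hnrnph1 read 1060 to 1758 (median 1548) in the 6 arrays and 412 to 1010 (median 562) in the rest, without overlap, and differed by 1.20 ± 0.19 (adjusted p = 0.000223). Hnrnph3 differed by 1.35 ± 0.24 and was the highest of its group in 5 of 6 groups. In B6g7 at 16 h its last-numbered array read 62.9, between the 50.7 and 75.5 of the others of that group. Hnrnph2 differed by 0.84 ± 0.17 and was also the highest in 5 of 6 groups.

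The CD45 regulators were higher as well. Hnrnpl read 69.6, 71.1, 85.4, 86.0, 52.6 and 80.4 in the 6 last-numbered arrays and 31.6 to 51.3 (median 37.6) in the rest. The 2 ranges were separate, and the difference was 0.89 ± 0.13 (adjusted p = 0.000125). Hnrnpll read 268 to 584 (median 516) against 226 to 394 (median 258), was the highest of its group in 6 of 6 groups and differed by 0.73 ± 0.14 (adjusted p = 0.0013). Hnrnpab read 242 to 452 (median 363) against 158 to 209 (median 181), again without overlap, and differed by 0.91 ± 0.10 (adjusted p = 1.89e-05). Hnrnpr, at 0.86 ± 0.19, also had no overlap. Hnrnpu, the scaffold attachment factor that binds chromatin-associated RNA, rose by 0.87 ± 0.23 and was the highest in 4 of 6 groups, with 161 against 129 and 202 in B6g7 at 16 h. With the 12 BDC2.5 arrays alone it gave 0.60 and was not called. Hnrnpul2 rose by 0.53 ± 0.14 (0.43 and not called with those 12 arrays alone), and Hnrnpa2b1, an abundant A/B-type hnRNP, by 0.32 ± 0.11 (adjusted p = 0.0405, among the members nearest the threshold, and lost when any of 10 of the 16 arrays was left out and with the 12 BDC2.5 arrays alone, at 0.22). Hnrnpk, which binds C-rich RNA, gave 0.81 ± 0.31 (adjusted p = 0.0594) and lay just outside the threshold. By their brightest probe sets the other A/B- and D-type genes were not called: Hnrnpa1 at -0.08 ± 0.11, Hnrnpd at 0.10 ± 0.13 and Hnrnpdl at -0.10 ± 0.11. A dimmer probe set of Hnrnpdl was called higher, at 1.14 ± 0.19 (adjusted p = 0.000433), with medians of 490 and 209.

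Among the SR genes, Srsf10 gave the largest difference of all 41 members. It read 311, 204, 349, 330, 173 and 359 in the last-numbered arrays, in the order of groups above, and from 41.5 to 94.6 with a median of 51.4 in the other 10. The lowest of the 6 was still above the highest of the 10, and the difference was 2.31 ± 0.19 (4.95-fold, adjusted p = 2.14e-06). Srsf2 (SC35), an exon enhancer binding protein used as a marker of nuclear speckles, read 3338, 2570, 3909, 3685, 2411 and 3978 against 1191 to 1910 (median 1388). These ranges were also separate, and the difference was 1.14 ± 0.12 (2.21-fold, adjusted p = 1.24e-05). Srsf1 (ASF/SF2), the founding member of the family, differed by 0.97 ± 0.23 (adjusted p = 0.00441) but overlapped: the rest reached 274, and the last-numbered array of B6g7 at 16 h read 212 beside a 237 in its own group. Srsf11 rose by 0.60 ± 0.16 (0.52 and not called with the 12 BDC2.5 arrays alone), Srsf4 by 0.48 ± 0.10 and Srsf9 by 0.40 ± 0.12. The Srsf9 call was lost without the last-numbered array of B6g7 at 16 h (0.38) or without either wild-type NOD array (0.31), with the 12 BDC2.5 arrays alone (0.31) and with quantile normalization (0.27). Srsf5 gave 0.39 ± 0.14 (adjusted p = 0.0504), just outside the threshold but called with quantile normalization (0.40), Srsf3 0.15 ± 0.13 and Srsf6 0.11 ± 0.10.

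**Figure D3:**
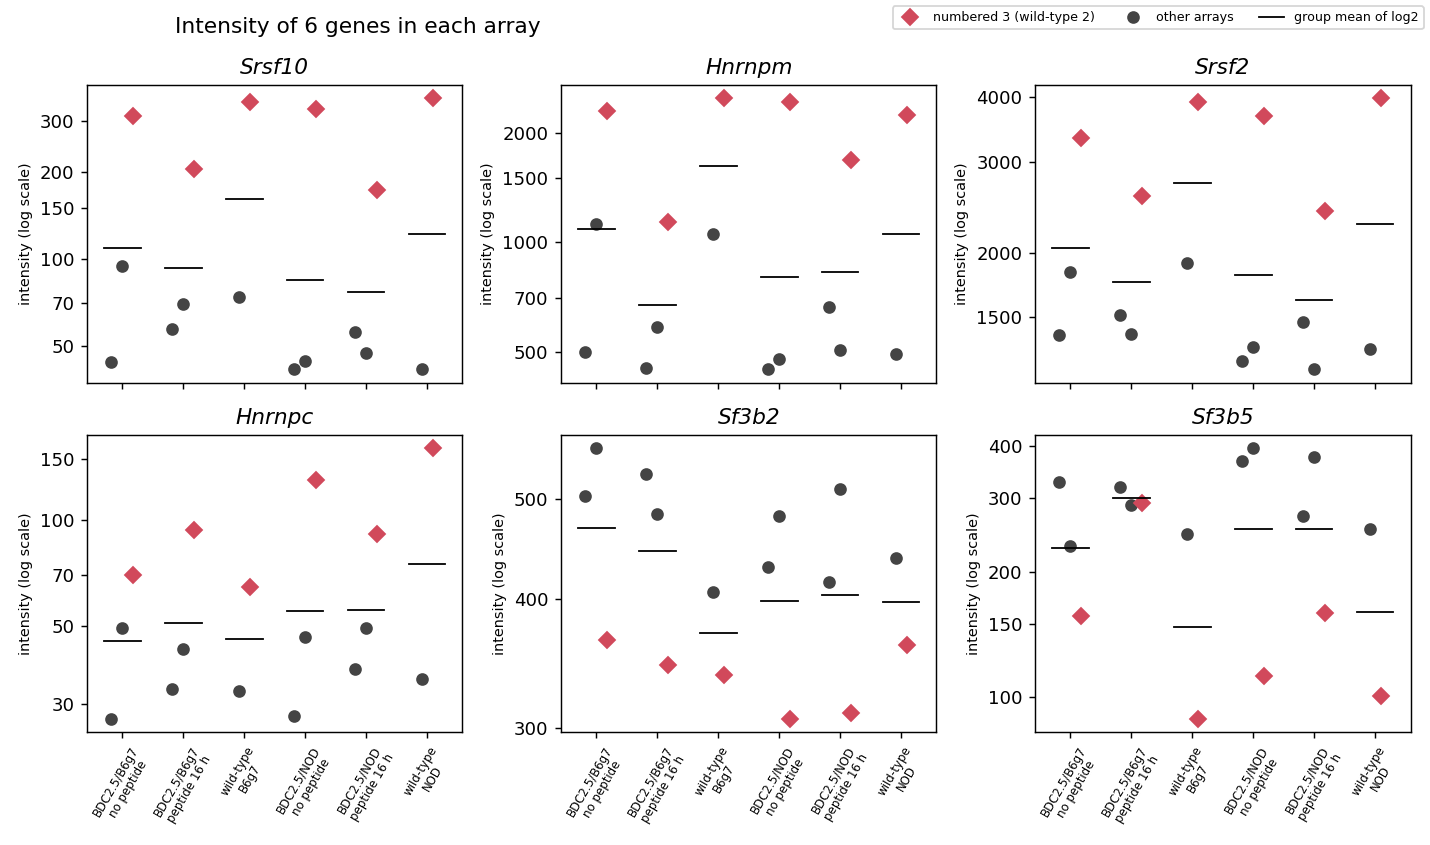
Intensity (log scale) of 6 genes in each array by group; red diamonds are the last-numbered arrays, grey circles the others and bars the group means of log2 intensity. The diamonds lie above all circles for Srsf10 (173 or more against 94.6 or less), Hnrnpm, Srsf2 and Hnrnpc, below all circles for Sf3b2, and below those of their own group in 5 of 6 groups for Sf3b5.

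Of the 8 snRNP genes, 2 were called higher (25%) and 2 lower (25%), close to the 22.2% and 22.8% over genes at least as bright as the dimmest member. Snrpa1, a U2 snRNP gene, read 380 to 588 (median 491) against 243 to 396 (median 352) and rose by 0.55 ± 0.13 (adjusted p = 0.00435), and it was the highest of its group in 6 of 6 groups. The Sm gene Snrpd3 rose by 0.76 ± 0.25 (adjusted p = 0.0286), a call lost without the last-numbered array of NOD without peptide (0.66) or at 16 h (0.63), or without either wild-type NOD array (0.73), and with the 12 BDC2.5 arrays alone (0.83). Snrpb, which encodes the Sm protein B, went the other way. It read 2257, 3068, 2208, 2265, 2533 and 1877 in the last-numbered arrays and 3062 to 4083 (median 3665) in the rest, and the last-numbered array gave the lowest reading within each of the 6 groups. Snrpb fell by 0.60 on the log2 scale (SE 0.11, adjusted p = 0.000897). The probe set of the pseudogene Snrp1c-ps2, of a type that can also read related transcripts, fell by 0.25 (SE 0.09, adjusted p = 0.0393). Its call was lost when any of 11 of the 16 arrays was left out, and with the 12 BDC2.5 arrays alone (-0.24). The other Sm genes Snrpe (0.20 ± 0.12) and Snrpg (0.23 ± 0.13), Snrpb2 of U2 (0.29 ± 0.13) and Snrpc of U1 (-0.32 ± 0.17) were not called.

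Of the SF3B genes, 3 were lower in the last-numbered arrays. Sf3b5, a small subunit, read 157, 292, 88.6, 112, 159 and 101 against 230 to 396 (median 304). Its last-numbered array was the lowest in every group but B6g7 at 16 h, where 292 lay between 289 and 320, and it fell by 1.05 (SE 0.18, adjusted p = 0.000438). Sf3b2 read 364, 345, 337, 306, 310 and 361 against 406 to 559 (median 482), all 6 below all 10, and fell by 0.48 (SE 0.09, adjusted p = 0.000968). Sf3b1, the scaffold that clamps the branch point, fell by 0.48 (SE 0.13, adjusted p = 0.0102) and was the lowest in 4 of 6 groups. Its dimmer probe set was called the opposite way (0.32, adjusted p = 0.027), and with the 12 BDC2.5 arrays alone the brightest gave -0.37 and was not called. Sf3b3, at 0.12 ± 0.10, and Sf3b6, the branch point contact protein, at -0.12 ± 0.11, were not called. The SF3A genes were not called either: Sf3a1 gave 0.21 ± 0.09, Sf3a2 -0.26 ± 0.12 (called at -0.38 with quantile normalization) and Sf3a3 0.16 ± 0.13.

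Counts of arrays need no model. The last-numbered array was the highest of its group in 6 of 6 groups for 11 of the 41 genes, against 10.1% of all probe sets, and the lowest in 6 of 6 for 3 genes, against 10.6%. All 6 lay above all other 10 arrays for 8 genes (Srsf10, Hnrnpm, Hnrnpc, Hnrnph1, Srsf2, Hnrnpab, Hnrnpl and Hnrnpr), where 4.44% of all probe sets did so, and below them for Sf3b2 alone, where 2.83% did. Within each group, which holds 1 last-numbered array, the members' median difference was above 0: 0.35 in B6g7 without peptide, 0.25 in B6g7 at 16 h, 0.20 in wild-type B6g7, 0.36 in NOD without peptide, 0.36 in NOD at 16 h and 0.89 in wild-type NOD. The medians of all probe sets in the same groups lay between -0.08 and -0.02. In wild-type NOD 33 genes were higher and 8 lower, and the hnRNP median reached 1.51. With 1 such array a group, differences between groups were not tested.

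Probe sets of the same gene did not always move alike. Of the 17 dimmer probe sets, 4 were called in the direction of the brightest: those of Srsf2 (2.26), Srsf1 (2.12), Hnrnpul2 (1.34) and Srsf10 (0.99). Over all probe sets 32.9% were called in either direction. The Srsf1 probe set at 2.12 had a median of 13.3 in the other arrays. The remaining dimmer probe sets of Srsf1 were not called (-0.005, at medians of 45.3 and 45.9, and 0.01). Among the 17, 5 had both medians under 20, and 0 of those were called. For Hnrnpa2b1 (0.32 by the brightest, -0.38 by the other) and Sf3b1 (-0.48 and 0.32) both probe sets were called in opposite directions. The dimmer probe set of Hnrnpdl above was the only one called where the brightest was not. A probe set reads a stretch of a transcript, so these values describe stretches and not whole genes. Probe sets whose names end in _f_at, _s_at or _r_at, such as those of Snrpe, Srsf3, Sf3b2, Srsf2, Snrpb and Snrp1c-ps2, can also read related transcripts.

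RNA quality and markers of cell types were read in the same arrays. For beta-actin the 3′ probe set exceeded the 5′ one by a log2 difference of 1.69 ± 0.25 (SD, n = 6) in the last-numbered arrays and 2.67 ± 0.32 (SD, n = 10) in the others, and for Gapdh by 1.94 ± 0.28 and 2.59 ± 0.28. Both were the lowest of the group in 6 of 6 groups. The marker counts are to be read against all probe sets. Of these, 4263 of 12422 were higher in the last-numbered arrays, with 14.8% called higher and 18.1% called lower. Among 9 thymocyte markers, Rag1 (1.04), Cd8a (0.53) and Rag2 (0.50) were called higher and Cd8b1 (-0.53) and Ptcra (-0.31) lower, and their summed intensity ran from 6822 to 17819 in the 6 arrays and from 7188 to 14430 in the others. B cell markers were higher in 0 of 5, with 3 called lower and sums of 356 to 441 against 399 to 506. Of 11 myeloid markers 5 were higher and 1 was called (Lyz2, 0.50, at a median intensity of 23.6), with sums of 518 to 650 against 508 to 673. Thymic epithelial markers were higher in 2 of 7 with 0 called (sums of 283 to 329 against 297 to 382), mesenchymal and endothelial markers in 2 of 9 with Pecam1 called lower (533 to 637 against 541 to 707), and erythroid markers in 0 of 4 with 0 called (189 to 219 against 198 to 294). No marker was listed at 0. The part of RNA quality or of other cells in the result was not tested, and in bulk RNA fewer cells of a type and less RNA per cell cannot be told apart.

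Other genes of the splicing machinery were taken from a list of 135, of which 93 were measured. In the last-numbered arrays 31 of the 93 (33.3%) were called higher and 14 (15.1%) lower, with a median of 0.15. Over all probe sets 14.8% were called higher and 18.1% lower, so the share of lower calls was not above that of all probe sets. The helicase gene Ddx5 rose by 2.39 ± 0.24, from a median of 147 to one of 931, and Qk (1.51), the SR protein kinase Clk4 (1.49), Celf2 (1.40), the export adaptor Alyref (1.39) and Cdc5l (1.27) followed. Clk3, a kinase of the same family as Clk4, fell by 1.04 from a median of 1051 to 538. Lsm4 (-0.99), Bud31 (-0.82), the helicase gene Dhx16 (-0.77) and Prpf8 (-0.70), the core of the spliceosome, were also called lower.

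**Figure D4:**
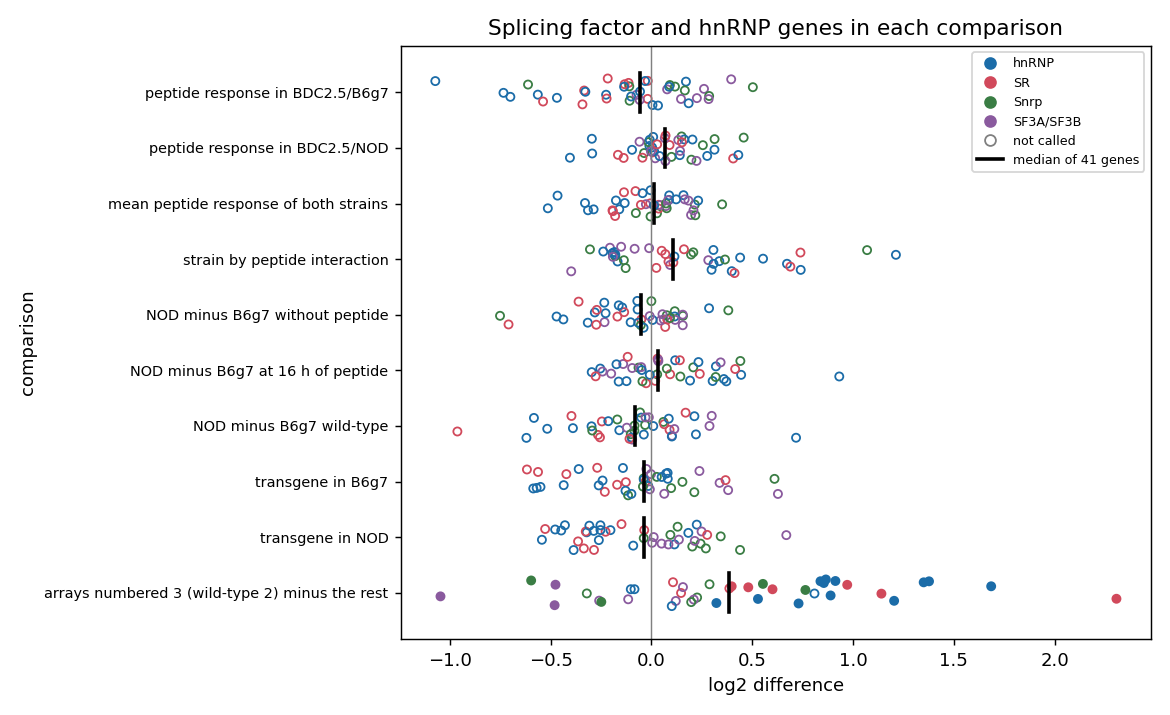
Log2 difference of each of the 41 genes (points, coloured by family) in the 9 comparisons of study groups and, at the bottom, of the last-numbered arrays; open points were not called, filled points were, and bars are medians. No point is filled in the 9 comparisons of groups, whose medians lie between -0.08 and 0.11, while the median of the last-numbered arrays is 0.39.

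The first comparison of study groups asked how BDC2.5 thymocytes responded to 16 h of peptide, the setting of negative selection. In B6g7 16 of the 41 genes were higher and 25 lower with peptide, with a median of -0.06 against -0.01 over all probe sets. Of all probe sets 5968 were higher and 6454 lower. The members were read in the same arrays, so their signs are not independent. limma called 0 members and 0.00805% of all probe sets. An unadjusted p under 0.05 was found for 0 members and for 3.4% of all probe sets. All 9 SR genes had negative differences (median -0.22), as did 11 of 16 hnRNP genes (median -0.12), while 6 of 8 SF3A/SF3B genes and 5 of 8 Snrp genes had positive ones (medians 0.19 and 0.10). Hnrnph3 read 66.6, 152 and 221 without peptide and 50.7, 75.5 and 62.9 with it. It was lower in 3 of 3 same-numbered pairs, but the groups overlapped and the difference of -1.07 ± 0.70 was within the spread (adjusted p = 1). Hnrnpll, Hnrnpul2, Hnrnpu, Hnrnph1, Hnrnpm, Srsf11, Snrpd3 and Srsf5 were also lower in 3 of 3 pairs, and Sf3a1 and Snrpe were higher in 3 of 3. The share of all probe sets with such pairs was not counted, and such pairs were not particular to this comparison. In NOD against B6g7 without peptide, Hnrnpll, Hnrnpul2, Hnrnpdl, Srsf1, Srsf5, Srsf6, Sf3b2 and Snrpd3 were lower in NOD in 3 of 3 pairs. Snrp1c-ps2, Snrpb and Sf3a1 were higher there in 3 of 3. For the peptide response in B6g7, Hnrnpu gave -0.73 ± 0.52 and Hnrnpm -0.70 ± 0.78. Snrpc (0.50 ± 0.30), Sf3b5 (0.40 ± 0.53) and Snrpe (0.29 ± 0.22) were the highest. No gene had groups of arrays that did not overlap, which 6.51% of all probe sets had. With a term for the last-numbered arrays the standard error of Hnrnph3 was 0.38, Srsf5 gave -0.54 ± 0.22 and Hnrnpll -0.56 ± 0.22. Members called were again 0, against 0.0322% of all probe sets, and the smallest adjusted p was 0.446. With the term 4 members and 991 of 12422 probe sets had an unadjusted p under 0.05. In the other comparisons of groups it gave 0 to 2 such members and 363 to 1182 such probe sets. The same term gave 0 members called in each of the other 8 comparisons of groups. There it called 0.00805% of all probe sets for the response in NOD, 0.0644% for the average response and 0% for the interaction. It called 0.66%, 1.16% and 0.378% for NOD against B6g7 without peptide, after 16 h of it and in wild-type thymocytes, and 0.105% and 0.0644% for the transgene in B6g7 and in NOD.

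In NOD 28 of the 41 genes were higher with peptide and 13 lower, at a median of 0.07 against -0.02 over all probe sets. Of all probe sets 5218 were higher and 7204 lower. limma again called 0 members and 0% of all probe sets. An unadjusted p under 0.05 was found for 0 members and for 1.67% of all probe sets. Snrpd3 (0.46 ± 0.52), Hnrnpk (0.43 ± 0.61) and Srsf1 (0.41 ± 0.55) were the highest and Hnrnpab (-0.40 ± 0.42), Hnrnpl (-0.30 ± 0.43) and Hnrnpu (-0.29 ± 0.52) the lowest, all with adjusted p = 1. Hnrnpa1, an abundant hnRNP that antagonises SR proteins in splice site choice, read 172, 217 and 219 without peptide and 237, 267 and 248 with it. It was the only member whose arrays did not overlap (0.31 ± 0.18), where 5.54% of all probe sets had this. Averaged over both strains 21 genes were higher and 20 lower (median 0.01), with 0 called and 0.0242% of all probe sets called. For this average 0 members and 3.58% of all probe sets had an unadjusted p under 0.05. Snrpc had 0.35 ± 0.21, Hnrnpk 0.23 ± 0.43 and Snrpe 0.22 ± 0.15 at one end, and Hnrnpu -0.51 ± 0.37, Hnrnph3 -0.47 ± 0.49 and Hnrnpm -0.33 ± 0.55 at the other (adjusted p = 0.998).

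The interaction, the response in NOD minus that in B6g7, tested whether the strains responded differently. It was positive for 26 genes, all 9 SR genes among them, and negative for 15, with a median of 0.11 against -0.03 over all probe sets. Over all probe sets it was positive for 5425 and negative for 6997. limma called 0 members and 0% of all probe sets, and 0 members and 1.18% of all probe sets had an unadjusted p under 0.05. Hnrnph3 gave 1.21 ± 0.98, Snrpd3 1.07 ± 0.73 and Hnrnpm 0.74 ± 1.10 but none of these differences was beyond the spread. With a term for the last-numbered arrays 2 members had an unadjusted p under 0.05, as did 363 of 12422 probe sets. These members were Hnrnph3 (1.21 ± 0.54) and Srsf5 (0.69 ± 0.32), and neither was called. Sf3b5 (-0.40 ± 0.75), Snrpc (-0.31 ± 0.43) and Hnrnpl (-0.24 ± 0.61) were the lowest.

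The strains were then compared at each state. Without peptide 16 genes were higher in NOD and 25 lower (median -0.05, against 0.03 over all probe sets), and limma called 0 members and 0.266% of all probe sets. Hnrnpdl, a paralog of Hnrnpd that binds AU-rich RNA, had the only unadjusted p under 0.05 (0.0264). It read 2292, 2950 and 2189 in B6g7 and 1430, 2065 and 1882 in NOD, so that each NOD array lay below each B6g7 array. The difference was -0.47 ± 0.19 (adjusted p = 1), and 5.6% of all probe sets had groups of arrays without overlap. Snrpd3 (-0.75 ± 0.52) and Srsf1 (-0.71 ± 0.55) were lower and Snrpc (0.38 ± 0.30), Hnrnpc (0.29 ± 0.65) and Snrp1c-ps2 (0.16 ± 0.18) higher, none beyond the spread.

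At 16 h of peptide 24 genes were higher in NOD and 17 lower (median 0.03, against 0.01), with 0 members called and 0.491% of all probe sets called. An unadjusted p under 0.05 was found for 0 members and for 5.68% of all probe sets. Hnrnph3 read 88.6, 80.9 and 233 in NOD against 50.7, 75.5 and 62.9 in B6g7. The groups did not overlap, the last-numbered NOD array lay far above the others, and the difference of 0.93 ± 0.70 was within the spread. Srsf5 (0.42 ± 0.29), Sf3b6 (0.34 ± 0.20) and Hnrnpll (0.32 ± 0.39) also had no overlap, which made 4 of 41 genes against 11.8% of all probe sets. Snrpb2 (0.44 ± 0.25) and Hnrnph1 (0.44 ± 0.60) came next, and Hnrnph2 (-0.30 ± 0.45), Srsf10 (-0.28 ± 1.03) and Hnrnpd (-0.25 ± 0.22) were the lowest. Of the 93 other splicing genes, 2 were called lower in NOD here and 0 in each of the other 8 comparisons of groups. Crnkl1, a spliceosome assembly protein, read 122 to 202 in NOD and 302 to 422 in B6g7 and differed by -1.18 ± 0.21 (adjusted p = 0.0269). Usp39, a protein of the tri-snRNP, read 71.6 to 78.4 against 109 to 140 and differed by -0.70 ± 0.14 (adjusted p = 0.0425). The call count was 0 without any 1 of the B6g7 arrays at 16 h or of the NOD arrays numbered 1 and 3 at 16 h, and 1 or 2 without any other array. Without the last-numbered arrays, which left 2 a group here, the adjusted p was 0.342 for Crnkl1 and 0.41 for Usp39, and with the replicate block it was 0.0115 and 0.00974.

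In wild-type thymocytes 14 genes were higher in NOD and 27 lower (median -0.08, against -0.03), with 0 members called and 0.0886% of all probe sets called. An unadjusted p under 0.05 was found for 0 members and for 2.09% of all probe sets. Srsf1 read 93.9 and 344 in NOD and 273 and 450 in B6g7, which gave -0.96 ± 0.68, and in both groups the higher value was that of the last-numbered array. The members' median turned to 0.26 without the NOD array numbered 1 and was -0.37 without that numbered 2. Hnrnpc (0.72 ± 0.80), Sf3b1 (0.30 ± 0.36) and Sf3b6 (0.29 ± 0.24) were the highest, and Hnrnpm (-0.62 ± 0.96) and Hnrnpk (-0.58 ± 0.75) followed Srsf1. Srsf4, at -0.25 ± 0.32, was the only member without overlap, where 20.9% of all probe sets had none with 2 arrays a group.

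The transgene comparisons set BDC2.5 cells without peptide against wild-type cells. In B6g7 15 genes were higher and 26 lower in BDC2.5 cells (median -0.04, against -0.02), with 0 members called and 0.0805% of all probe sets called. An unadjusted p under 0.05 was found for 0 members and for 1.49% of all probe sets. Sf3b5 (0.63 ± 0.59), Snrpd3 (0.61 ± 0.58) and Sf3b1 (0.38 ± 0.33) were the highest and Srsf1 (-0.62 ± 0.62), Hnrnph3 (-0.59 ± 0.78) and Hnrnpm (-0.57 ± 0.87) the lowest. Only Srsf9 (0.37 ± 0.30) had no overlap, against 11.1% of all probe sets. In NOD 19 were higher and 22 lower (median -0.04, against 0.04), with 0 members called and 0.0564% of all probe sets called. The members' median was -0.43 without the wild-type array numbered 1 and 0.34 without that numbered 2. An unadjusted p under 0.05 was found for 0 members and for 2% of all probe sets. Sf3b5 (0.67 ± 0.59), Snrpc (0.44 ± 0.34) and Snrpe (0.34 ± 0.24) were the highest and Hnrnpu (-0.54 ± 0.58), Srsf10 (-0.53 ± 1.15) and Hnrnph3 (-0.48 ± 0.78) the lowest. Hnrnpdl (-0.43 ± 0.21) and Hnrnpa1 (-0.32 ± 0.20) had no overlap, where 8.71% of all probe sets had none. The last-numbered array was 1 of 3 in the BDC2.5 groups and 1 of 2 in the wild-type groups, so these comparisons were not balanced for it. With a term for it the median hnRNP difference moved from -0.14 to -0.05 in B6g7 and from -0.27 to -0.12 in NOD, and the median SR difference from -0.23 to -0.15 and from -0.29 to -0.14. The no-peptide groups serve in several of these comparisons, so their values are not independent.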

How the data were processed

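The table deposited by the authors gave a linear intensity for each probe set in each array. The method behind these values (scaling between arrays, background, summary) was not given in the sources used here. Intensities were taken to log2 without a pseudocount. Of 12488 probe sets 66 controls were left out. Arrays have no read depth, and their number limits the precision.

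limma 3.58.1 (R 4.3.3; lmFit, eBayes with trend) was fitted to 12422 probe sets and all 16 arrays with a mean for each group, two-sided, and Benjamini-Hochberg adjustment ran over all probe sets within each comparison. The last-numbered arrays entered as a term beside the group means. Errors after ± are standard errors unless called SD. The script was tested on simulated data.

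Members, lists, tests and alternatives were chosen with earlier results of these data known. Named were every called member (up to 10 a direction), the 3 highest and 3 lowest differences of each group comparison, the 8 highest and 8 lowest of the last-numbered arrays, and fixed genes of each family; other members named in the text were picked with their values in view.

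Array numbers come from the titles. Deviations of same-numbered BDC2.5 arrays from their group means correlated at 0.165 to 0.842 across probe sets, and at -0.499 to 0.81 in comparisons with wild-type arrays. A shared departure of the last-numbered arrays contributes to these values, and correlations between differently numbered arrays are not given here for comparison. The labels do not state any pairing. Beyond these correlations, arrays were matched by number only in the counts of same-numbered pairs and in the replicate block. The main fit of the group comparisons used group means alone, so its standard errors and p-values are unpaired.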

Additional observations from a re-analysis of the deposited data

How the results depend on the processing

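In the 9 comparisons of study groups 0 of the 41 members were called under each of 25 settings a comparison, among them the replicate block, the term for the last-numbered arrays, quantile normalization, subtraction of array medians, 16 added before log2, an intensity minimum of 50, all 58 probe sets, the fit without the 6 last-numbered arrays (chosen after seeing the data) and each array left out in turn. The replicate block matched same-numbered arrays, including wild-type arrays numbered 2 to BDC2.5 arrays numbered 2. It changed no member's call, with 0 members called. Over all probe sets it raised the calls from 33 to 69 for the strain difference without peptide, from 61 to 129 at 16 h and from 11 to 32 in wild-type cells. The term for the last-numbered arrays gave 82, 144 and 47 there. For the average peptide response the calls went from 3 to 7 with the block and 8 with the term, and for the B6g7 response from 1 to 3 and 4. With single arrays left out they ran from 15 to 43, 15 to 58, 2 to 14, 0 to 10 and 0 to 10 for these 5 comparisons. Without the 6 arrays the strain difference at 16 h had 36 calls and the transgene difference in NOD 0 instead of 7. For the last-numbered arrays the members called were 17 with the 12 BDC2.5 arrays alone (14 higher and 3 lower) and 21 to 28 with single arrays left out, against 25 of the 41 genes. Counted by probe set, 32 of all 58 were called (26 higher and 6 lower), a count in which a gene can occur more than once. Quantile normalization gave 20 higher and 6 lower, losing Srsf9 and adding Srsf5 and, downward, Sf3a2. Subtraction of array medians gave 20 higher and 4 lower, losing Snrp1c-ps2, and the intensity minimum of 50 added Srsf5, with the median of all probe sets between -0.07 and -0.04. With the BDC2.5 arrays alone Hnrnpa2b1, Hnrnpu, Hnrnpul2, Sf3b1, Snrp1c-ps2, Snrpd3, Srsf9 and Srsf11 lost their calls. With single arrays left out, Hnrnpk, Sf3a1, Snrpb2, Snrpc and Srsf5 gained a call, each by leaving out any of 2 to 4 arrays. Of 2293 named values under these settings 35 changed sign, all of them uncalled. The other splicing genes called lower at 16 h were 2, but 1 with array medians subtracted, 0 to 2 with single arrays left out and 0 without the 6 arrays. Without peptide they were 1 with the replicate block, 1 with the term and 0 to 1 with single arrays left out, and in wild-type cells 1 with the block and 1 with the term, instead of 0. The members' median strain difference in wild-type cells was 0.26 without the NOD array numbered 1 and -0.37 without that numbered 2, and the median transgene difference in NOD -0.43 and 0.34. The cause was not tested. With 2 or 3 arrays a group and no detection values, dim genes such as Hnrnpc and Hnrnpl carry an unknown background.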
